A study of Mus musculus with 7 samples.

Results

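The genes of the vacuolar proton pump (V-ATPase), the cathepsins and the lysosome-associated membrane proteins *Lamp1* and *Lamp2* were examined in secondary follicle-enclosed oocytes lacking Mitofusin 1. Members were all genes of the table whose symbol begins with Atp6v or Atp6ap, consists of Cts and 1 letter, or is *Lamp1* or *Lamp2*. This gave 38 of the 22877 genes: 11 genes of the V1 domain, 9 of the V0 domain, 1 V0 pseudogene (*Atp6v0c-ps1*), 3 accessory protein genes, 12 cathepsins and the 2 Lamp genes. A further 10 symbols of the GENCODE M21 annotation match the rule and have no row, namely *Atp6v1b1*, *Atp6v1g3*, *Atp6v1fnb*, *Ctsg*, *Ctsj*, *Ctsk*, *Ctsq*, *Ctsr*, *Ctsw* and the pseudogene *Atp6v0c-ps2*.

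RNA was sequenced from oocytes of 8-week-old C57BL/6J mice, with 5 oocytes pooled per library, in 4 WT and 3 *Mfn1*-/- libraries. *Mfn1*-/- denotes *Mfn1* fl/fl mice carrying Zp3-Cre, in which Cre is driven by the oocyte-specific *Zp3* promoter, so that the deletion takes place in growing oocytes, and WT mice were littermates. The table gives 1 mean of normalized counts per genotype and gene. Therefore no spread between replicates, depth per library or test can be given, and every difference below is a description of these 2 sets of libraries.

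The V-ATPase moves protons into lysosomes and endosomes at the cost of ATP. Its cytosolic V1 domain hydrolyses ATP and its membrane V0 domain conducts the protons, and the pump works only when both are assembled. The acid lumen activates the cathepsins, most of which are cysteine proteases made as inactive precursors, while LAMP1 and LAMP2 are the heavily glycosylated proteins that line the lysosomal membrane. Oocytes contain such acidic compartments, which degrade material taken up from outside or delivered by autophagy.

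The targeted gene *Mfn1* had a mean of 0.0577 normalized counts in *Mfn1*-/- oocytes and 0.616 in WT. Log2 fold changes of *Mfn1*-/- over WT were computed after adding a pseudocount of 0.1 to each mean, so that differences of weakly expressed genes are understated. Genes whose mean over the 7 libraries was 1 or more are called expressed genes here. For these 6226 genes the median log2 fold change was 0.16 rather than 0, and all means together summed to 142576 in *Mfn1*-/- oocytes and 130160 in WT. A member with a log2 fold change of 0.16 thus stood at the middle of all expressed genes, and values relative to this shift are given for members that it moves across 0. Of 14 oocyte markers, 14 were expressed in both genotypes, with *Zp3* (708 vs. 609) and *Gdf9* (533 vs. 461, *Mfn1*-/- first) among them, and they summed to 3610 and 3106. Of 12 macrophage markers, 7 had a row, 2 higher and 5 lower in *Mfn1*-/- oocytes, with summed means of 4.48 and 9.46. Nearly all of these sums came from *C1qb* (4.25 vs. 9.17). *Fcgr1* had 0.113 and 0.0624. *Csf1r* (0.0316 vs. 0.0426), *Lyz2* (0.01 vs. 0.0203) and *Cx3cr1* (0.012 vs. 0.0107) were near the lowest value of the table, 0.01. Of 14 granulosa cell markers, 12 had a row, 4 higher and 8 lower in *Mfn1*-/- oocytes, with summed means of 2.4 and 1.69. *Inha* alone made up 1.87 and 0.954 of these sums, and *Fshr* (0.016 vs. 0.0171) and *Amh* (0.0349 vs. 0.02) were near the lowest value. Whether RNA from other cells has a part in the values below was not tested. In pooled oocytes, a change in the number of cells that contribute RNA and a change in RNA per cell cannot be told apart.

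Members tended to have higher means in *Mfn1*-/- oocytes, mostly by less than 2-fold. Of the 20 members with a mean of at least 1, 18 were higher in *Mfn1*-/- and 2 were lower, whereas 65.4% of all expressed genes were higher. Relative to the median of expressed genes, 14 of the 20 stood above and 6 below, against 50% of expressed genes above it by definition. Their median log2 fold change was 0.38, compared with 0.16 for all expressed genes. *Ctsl* (0.654 in WT), *Atp6v0c-ps1* (0.685) and *Atp6v0d1* (0.943) reached a mean of 1 only through their higher *Mfn1*-/- means. Counts and medians of expressed members, here and below, include them and depend in part on this filter, which all expressed genes passed too. A 1.5-fold higher mean was found for 7 of the 20 (15.5% of expressed genes) and a 1.5-fold lower mean for 0 of the 20 (7.71% of expressed genes). Counted over all 38 members, 8 were 1.5-fold higher (12.4% of all genes) and 1 was 1.5-fold lower (6.88%). A 2-fold higher mean was found for 3 of all 38 members, *Ctsl*, *Atp6v0c-ps1* and *Atp6ap2*, compared with 4.89% of all genes and 5.49% of expressed genes. A 2-fold lower mean was found for 0 of 38, compared with 2.76% of all genes and 3.24% of expressed genes. Relative to the shift, *Ctsl* alone was past 2-fold, compared with 3.58% of all genes and 3.87% of expressed genes, and a pseudocount of 1 left 0 members past 2-fold. Over all 38 members, including 18 with a mean under 1, 26 were higher and 12 lower, compared with 56.7% of all genes higher, and the median log2 fold change was 0.16, compared with 0.04 for all genes. This median became -0.00199 when the shift of expressed genes was subtracted, with 18 of 38 members above it, compared with 36.7% of all genes.

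**Figure D1:**
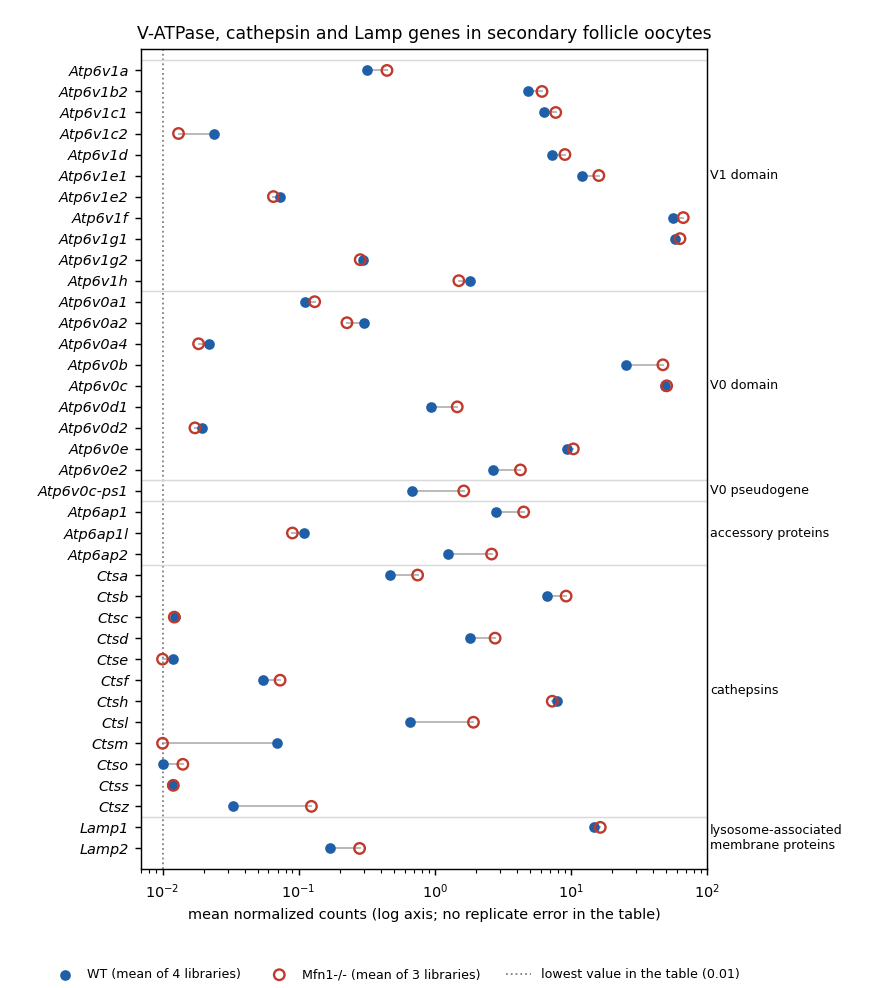
Mean normalized counts (log axis) of the 38 members in WT oocytes (filled, mean of 4 libraries) and *Mfn1*-/- oocytes (open, mean of 3 libraries), grouped by role, with no replicate error because the table holds 1 mean per genotype. The levels run from the lowest value of 0.01 to 66.7, and *Atp6v0b*, *Atp6v0c-ps1*, *Atp6ap2*, *Ctsl* and *Ctsz* show the widest gaps to the right, *Ctsm* the widest to the left.

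Most V1 subunits differed little from the bulk of expressed genes. *Atp6v1e1*, part of the peripheral stalk that holds the catalytic head in place, had 16 normalized counts in *Mfn1*-/- oocytes and 12 in WT, the highest log2 fold change of V1 at 0.41. *Atp6v1b2*, which encodes the non-catalytic nucleotide-binding subunit B, had 6.12 and 4.82 (0.34). *Atp6v1d*, the central rotor shaft, had 9.02 and 7.26 (0.31). *Atp6v1c1*, which links V1 to V0 and takes part in their reversible assembly, had 7.72 and 6.38 (0.27). *Atp6v1f*, a small rotor subunit, was the V1 gene with the highest *Mfn1*-/- mean (66.7 vs. 56.3, 0.24). All 5 lay above the median of expressed genes, by 0.08 to 0.25. *Atp6v1g1*, a stalk subunit, had 63.1 and 57.8, and its log2 fold change of 0.13 turned to -0.03 relative to that median. *Atp6v1h*, a regulatory subunit that inhibits ATP hydrolysis by detached V1, was the only expressed V-ATPase gene with a lower mean in *Mfn1*-/- oocytes (1.5 vs. 1.8, log2 fold change -0.25), and 17.3% of expressed genes had a lower log2 fold change.

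The catalytic subunit gene *Atp6v1a* had far lower values than its partners, 0.445 in *Mfn1*-/- and 0.316 in WT oocytes, and did not reach a mean of 1. In WT oocytes the mean of *Atp6v1f* was 178 times that of *Atp6v1a*, and in *Mfn1*-/- oocytes it was 150 times, although both proteins belong to the same domain. Which scale the normalized counts are on is not given in the sources used here, and levels of different genes can be compared only per length. The smallest values above the lowest one fell with exon length. Their first percentile above 0.01 in WT oocytes was 0.0022 in the shortest of 10 length classes (median 465 exon bases) and 0.0002 in the longest class (median 10927 bases), as it would be for values divided by length. Across the 12 expressed V1 and V0 genes the level still fell with exon length (Spearman's rho = -0.51 over genes, which share the same libraries), across all 20 V1 and V0 genes, *Atp6v1a* included, rho was -0.26, and across 4580 expressed protein-coding genes rho was -0.36. *Atp6v1a* has 6044 exon bases and *Atp6v1f* 1063, and the part of length in their difference in level was not tested.

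The V0 domain held the largest differences among the pump's own subunits. *Atp6v0b*, the proteolipid c'' of the proton-carrying ring, had 47.3 normalized counts in *Mfn1*-/- oocytes and 25.2 in WT. Its log2 fold change of 0.91 was higher than that of 93.1% of expressed genes, and 0.75 remained after the shift of expressed genes was subtracted. *Atp6v0c*, which encodes the main ring proteolipid c, had 50.4 and 48.8 (0.05, or -0.11 relative to the shift). Hence *Atp6v0b* made up 48.4% of the summed proteolipid values in *Mfn1*-/- and 34.1% in WT oocytes. *Atp6v0e2*, a paralog of the small membrane subunit e, had 4.25 and 2.66 (0.66), whereas *Atp6v0e* itself had 10.4 and 9.32 (0.16). *Atp6v0d1*, the cap that couples the rotor to the ring, had 1.46 and 0.943 (0.58). No V0 gene with a mean of at least 1 was lower in *Mfn1*-/- oocytes as deposited, while *Atp6v0c* and *Atp6v0e* stood below 0 relative to the shift.

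Subunit a, which carries the proton half-channels and directs the pump to its membrane, was encoded by genes with low means in these oocytes. *Atp6v0a2* had 0.226 normalized counts in *Mfn1*-/- oocytes and 0.303 in WT (log2 fold change -0.31), and *Atp6v0a1* had 0.131 and 0.112 (0.12, or -0.04 relative to the shift). *Tcirg1*, which encodes the a3 subunit of lysosomes and osteoclasts and does not match the rule by its symbol, had 0.182 and 0.0292 (1.13). The share of *Tcirg1* in the summed values of the 4 paralogs was 32.7% in *Mfn1*-/- and 6.26% in WT oocytes, and that of *Atp6v0a2* was 40.5% and 65%. These shares rest on means under 1, where the spread between libraries is unknown. For subunits C, E, G and d, 1 paralog supplied nearly the whole sum in both genotypes. *Atp6v1c1* held 99.6% of subunit C in WT oocytes, *Atp6v1e1* 99.4% of E, *Atp6v1g1* 99.5% of G and *Atp6v0d1* 98% of d. Their counterparts *Atp6v1c2*, *Atp6v1e2*, *Atp6v1g2* and *Atp6v0d2*, known from epithelia, testis, brain and osteoclasts respectively, had values between 0.0131 and 0.296. *Atp6v0a4*, the kidney and epididymis form of subunit a, had 0.0184 and 0.0219.

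**Figure D2:**
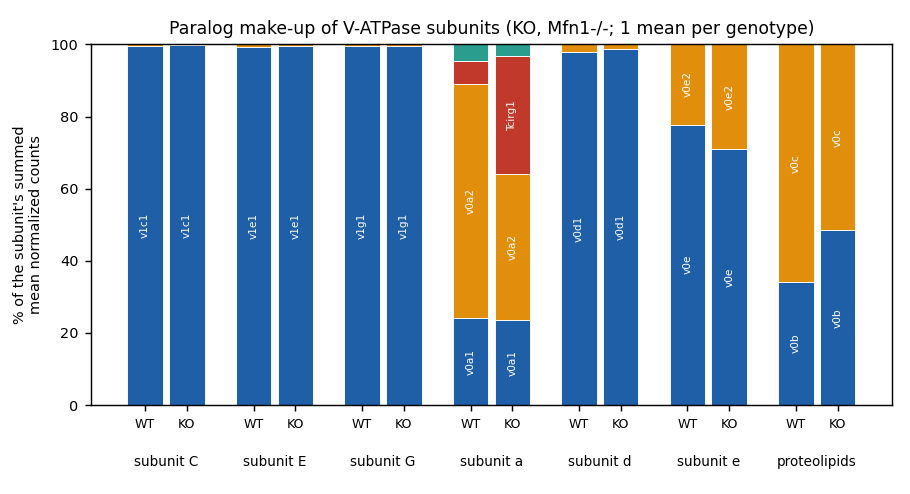
Share (%) of each paralog in the summed mean normalized counts of its V-ATPase subunit, in WT and *Mfn1*-/- (KO) oocytes, with 1 mean per genotype and no error, stacked in the order the paralogs are named in the bars (in subunit a, *Tcirg1* red and *Atp6v0a4* green). Subunits C, E, G and d keep 1 dominant paralog, the a subunit shows the shares of *Tcirg1* (6.26% in WT, 32.7% in KO) and *Atp6v0a2* (65%, 40.5%), and the proteolipids show *Atp6v0b* at 34.1% and 48.4%.

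Both expressed accessory genes of the pump had higher values in *Mfn1*-/- oocytes. *Atp6ap2*, also known as the prorenin receptor and needed for pump assembly, had 2.61 normalized counts in *Mfn1*-/- oocytes and 1.25 in WT. Its log2 fold change of 1.01 was just past 2-fold, and 0.85 relative to the shift. *Atp6ap1*, which assists V0 assembly in the endoplasmic reticulum, had 4.49 and 2.79 (0.67). The related *Atp6ap1l* had 0.0899 and 0.11 (-0.15). Together, 13 of the 14 expressed V-ATPase genes were higher in *Mfn1*-/- oocytes (median log2 fold change 0.32), compared with 65.4% of expressed genes. Above the median of expressed genes stood 10 of the 14, compared with 50% by definition. Over all 23 V-ATPase genes 15 were higher and 8 lower, compared with 56.7% of all genes higher. Their median log2 fold change was 0.16, that of the median expressed gene. The sum of the 23 V-ATPase genes was 292 in *Mfn1*-/- oocytes and 239 in WT, which is 1.23 times as much, compared with 1.1 for the sum of all genes. *Atp6v0b* alone supplied 22.1 of the difference between these sums. By class the ratio of sums was 1.16 for V1, 1.31 for V0, *Atp6v0b* included, and 1.73 for the accessory genes. The V0 ratio leans on *Atp6v0b* (47.3 vs. 25.2) and does not describe V0 genes in general. Over all genes of a class, the median log2 fold change was 0.24 for the 11 V1 genes and 0.12 for the 9 V0 genes. Among expressed genes it was 0.27 for 7 V1 genes and 0.58 for 5 V0 genes. Which of the 2 classes stood higher thus depended on the measure.

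Among the assembly factors of the pump, none of which are members, *Vma21* had 2.89 and 1.71 (log2 fold change 0.72), *Tmem199* 35 and 26.9 (0.38), *Rogdi* 9.25 and 7.69 (0.26) and *Ccdc115* 56.1 and 50.1 (0.16). All 4 with a mean of at least 1 were higher in *Mfn1*-/- oocytes, compared with 65.4% of expressed genes, and *Ccdc115* stood at the median of expressed genes. *Dmxl1*, *Dmxl2* and *Wdr7*, whose products take part in reassembling V1 onto V0, lay between 0.0189 and 0.116 in both genotypes.

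Some members have near-identical copies, between which the authors' counting could have divided paired-end reads of 75 bases. A copy is here another gene whose transcript shares at least 200 bases at 95% identity or more, and 6 of the 38 members had 1 or more. The transcript of *Gm13453* (chromosome 2, 40127504 to 40127860, GRCm38) differs from that of *Atp6v1g1* at 2 of 357 aligned bases, and 47% of its stretches of 75 bases are also found in *Atp6v1g1*. The copy is listed with 56.2 normalized counts in *Mfn1*-/- oocytes and 39.6 in WT, compared with 63.1 and 57.8 for *Atp6v1g1* itself. Summed with its copies, *Atp6v1g1* had 119 and 97.5, a log2 fold change of 0.29 in place of 0.13. The pseudogene member *Atp6v0c-ps1* (chromosome 7, 4412438 to 4412900) differs from *Atp6v0c* at 11 of 463 bases. It had 1.63 and 0.685 normalized counts (1.14), against 50.4 and 48.8 of *Atp6v0c*, and shares 25 of its 389 stretches of 75 bases with it. Summed, both had 52 and 49.5, a log2 fold change of 0.07. *Gm36448* (chromosome 14), a copy of part of *Atp6ap2*, went the other way, with 0.169 in *Mfn1*-/- and 0.722 in WT oocytes, differs at 7 of 438 bases and shares 15 of its 364 stretches of 75 bases with *Atp6ap2*, so most of its stretches can be told apart. Summed with it, *Atp6ap2* had 2.78 and 1.97, a log2 fold change of 0.47. The sums in this paragraph add deposited means without weighting by length. If these means are per length, a short copy weighs more in a sum than its reads would. The transcripts have 438 bases (*Gm36448*) and 2324 (*Atp6ap2*), and 357 (*Gm13453*) and 1135 (*Atp6v1g1*). The sums therefore do not show how far reads given to copies alter the log2 fold changes of the genes. The following stretches of 75 bases, the length of 1 read of a pair, set coding sequence of each gene beside the aligned stretch of its pseudogene copy. Each was chosen as the first coding stretch with the most differences, so other coding stretches differ at as many bases or fewer. The differing bases are in capitals (GENCODE M21 transcripts, sense strand, 5′ to 3′).
Atp6v1g1: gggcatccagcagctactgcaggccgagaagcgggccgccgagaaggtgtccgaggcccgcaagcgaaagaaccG
Gm13453: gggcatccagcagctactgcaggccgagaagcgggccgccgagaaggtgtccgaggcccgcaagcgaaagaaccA
Atp6v0c: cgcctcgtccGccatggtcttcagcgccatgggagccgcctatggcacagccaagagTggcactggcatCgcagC
Atp6v0c-ps1: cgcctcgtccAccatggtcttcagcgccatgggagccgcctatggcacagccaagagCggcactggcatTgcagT
Atp6ap2: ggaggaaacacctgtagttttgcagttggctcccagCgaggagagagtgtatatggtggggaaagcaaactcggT
Gm36448: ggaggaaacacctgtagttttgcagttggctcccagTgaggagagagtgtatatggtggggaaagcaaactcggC

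Only 4 of the 12 cathepsin genes reached a mean of 1, and *Ctsl* differed most between the genotypes among these 4. *Ctsl* reached it only through its *Mfn1*-/- mean, so its place among the 4 depends in part on the filter. Among all 12, *Ctsm* (-1.98) and *Ctsz* (1.65) had larger log2 fold changes than *Ctsl* (1.54) with a pseudocount of 0.01, from means near the lowest value. *Ctsl* (chromosome 13, 64359337 to 64370890) encodes a broad-acting lysosomal cysteine endopeptidase and had 1.92 normalized counts in *Mfn1*-/- oocytes and 0.654 in WT. Its log2 fold change of 1.42, or 1.26 relative to the shift, was higher than that of 97.8% of expressed genes, and it was past 2-fold under each setting tried except a pseudocount of 1. Exons of *Ctsl* overlap those of *Gm49230* on the same strand and *Gm47123* on the opposite strand, which have no row. *Ctsd*, the main lysosomal aspartic protease, had 2.77 and 1.81 (0.59). *Ctsb*, a cysteine protease that also acts as a peptidyl-dipeptidase, had 9.2 and 6.62 (0.47), and its exons overlap those of *Fdft1* on the opposite strand, listed with 25.7 and 22.2. *Ctsh*, an aminopeptidase, had 7.28 and 7.87 (-0.11). In the deposited values, whose scale is not named, the cathepsin with the highest mean was *Ctsb* in *Mfn1*-/- oocytes (41.5% of the summed cathepsin values) and *Ctsh* in WT oocytes (44.7%), while *Ctsl* made up 8.66% and 3.71%.

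*Ctsa*, the carboxypeptidase that protects the sialidase NEU1 and beta-galactosidase in the lysosome, had 0.747 normalized counts in *Mfn1*-/- oocytes and 0.466 in WT (log2 fold change 0.58). *Ctsz*, a carboxypeptidase, had 0.124 and 0.0328 (0.75 with the pseudocount of 0.1). Exons of *Ctsz* overlap those of *Nelfcd* on the opposite strand, a gene listed with 2.67 and 1.77, so reads of either gene could have been counted for the other, as the strand setting is not given in the sources used here. *Ctsf* had 0.073 and 0.0551 (0.16, or -0.00164 relative to the shift). The other cathepsins were close to the lowest value in the table: *Ctsc*, *Ctse*, *Ctso* and *Ctss* lay between 0.01 and 0.0141 in both genotypes, and *Ctso* (log2 fold change 0.05) and *Ctss* (0.00) became -0.11 and -0.16 relative to the shift. *Ctss*, the cathepsin of macrophages and other antigen-presenting cells, had 0.012 and 0.0117. *Ctsm*, of the placental cathepsin cluster, stood at the lowest value in *Mfn1*-/- and at 0.0688 in WT oocytes, and its near-identical neighbour *Cts3* had 0.0644 and 0.302. The 4 expressed cathepsins had a median log2 fold change of 0.53, with 3 higher and 1 lower, compared with 65.4% of expressed genes higher. Of the 12 together, 8 were higher and 4 lower, compared with 56.7% of all genes higher. The median of the 12 was 0.11, which became -0.054 relative to the shift.

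*Lamp1* and *Lamp2* did not share the difference of *Ctsl*. *Lamp1* had 16.4 normalized counts in *Mfn1*-/- oocytes and 14.7 in WT, and its log2 fold change of 0.16 was that of the median expressed gene. *Lamp2*, whose product serves as the receptor of chaperone-mediated autophagy, had 0.28 and 0.17 (0.49).

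**Figure D3:**
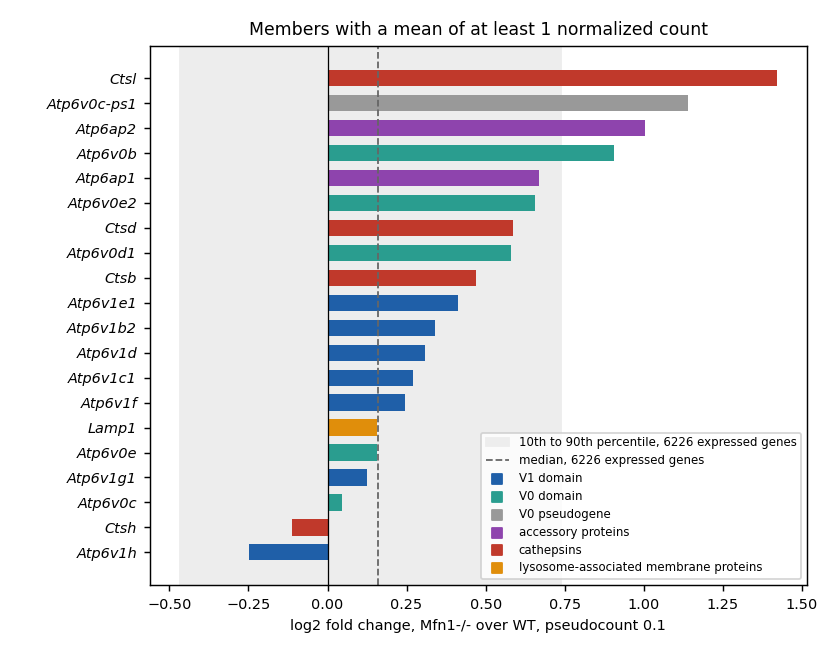
Log2 fold change (*Mfn1*-/- over WT, pseudocount of 0.1) of the 20 members with a mean of at least 1, coloured by role, with the median (dashed, 0.16) and the range from the 10th to the 90th percentile (grey, -0.47 to 0.74) of 6226 expressed genes. The bars have no error because the table holds 1 mean per genotype. *Ctsl*, *Atp6v0c-ps1*, *Atp6ap2* and *Atp6v0b* lie above the grey range, and *Ctsh* and *Atp6v1h* are the 2 below 0.

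Cystatins inhibit cysteine cathepsins. *Cst3*, the secreted cystatin C, had 52.1 normalized counts in *Mfn1*-/- oocytes and 33.7 in WT (log2 fold change 0.63), and *Cstb*, its intracellular relative, had 16.7 and 11.6 (0.52). The other 3 cystatins with a row, *Cst6*, *Cst8* and *Cst12*, had values between 0.0135 and 0.165.

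Other lysosomal gene groups are given beside the shares of higher genes among all genes (56.7%) and among expressed genes (65.4%). Of 34 other lysosomal hydrolases and their cofactors with a row, 26 were higher and 8 lower in *Mfn1*-/- oocytes, and of the 10 with a mean of at least 1, 7 were higher, with a median log2 fold change of 0.33. *Neu1*, the sialidase held by the product of *Ctsa*, had 6.31 and 1.55 (1.96). *Asah1*, the acid ceramidase, had 0.544 and 0.105 (1.65), and *Acp5* had 3.71 and 1.87 (0.95). In the other direction, *Scpep1* had 1.6 and 2.34 (-0.52) and *Idua*, the alpha-L-iduronidase, had 1.62 and 2.21 (-0.43). Of 22 lysosomal membrane proteins and transporters, 16 were higher and 6 lower, and of the 8 expressed ones 6 were higher, with a median of 0.35. *Cd68*, a heavily glycosylated relative of the Lamp proteins that is abundant in macrophages, had 7.58 and 0.672 (3.31). Whether RNA from macrophages has a part in this difference was not tested. *Mcoln1*, the lysosomal calcium channel, had 4.32 and 2.49 (0.77). Of 16 sorting genes, 11 were higher and 5 lower, and none was past 2-fold (highest 0.54). Of all genes, 4.89% were 2-fold higher and 2.76% 2-fold lower, so few would be looked for in a list of this size. The mannose 6-phosphate receptor *M6pr* had 4.88 and 3.49 (0.47). Of 9 genes of the Ragulator and RAG GTPases, which tether mTORC1 to the lysosome, 7 were higher and 2 lower. None was past 2-fold, to be read beside the same 4.89% and 2.76% of all genes. *Lamtor1* had the highest log2 fold change of them (0.76, 8.71 vs. 5.1).

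**Figure D4:**
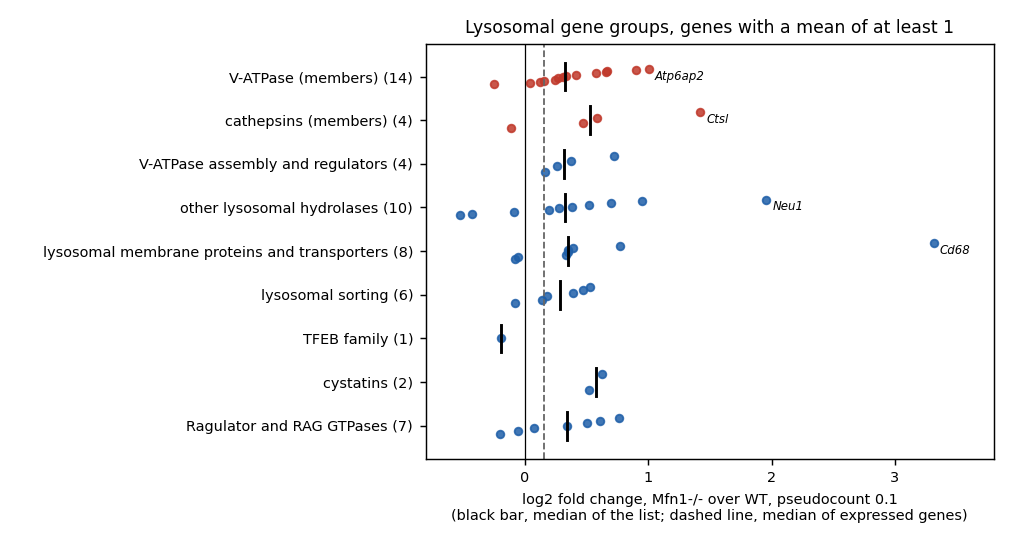
Log2 fold change (*Mfn1*-/- over WT, pseudocount of 0.1) of each gene with a mean of at least 1 in the V-ATPase and cathepsin groups (red) and in 7 other lysosomal groups (blue), with the number of genes in brackets, the median of each group (black bar) and the median of 6226 expressed genes (dashed, 0.16). *Cd68* (3.31), *Neu1* (1.96), *Ctsl* (1.42) and *Atp6ap2* (1.01) are the genes past 2-fold.

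Many lysosomal genes carry an E-box, CACGTG, close to their start site, which the transcription factors TFEB and TFE3 bind. *Tfe3* had 1.64 normalized counts in *Mfn1*-/- oocytes and 1.89 in WT (log2 fold change -0.19), *Tfeb* 0.0237 and 0.011, *Mitf* 0.0272 and 0.021, and *Tfec* 0.0923 and 0.0255, so only *Tfe3* was expressed above a mean of 1. RefSeq promoters (GRCm38.p6, 250 bases before to 50 after each start) were found for 27 of the 38 members. The letters CACGTG, which read the same on both strands, occurred in the promoters of 9 of the 27, compared with 8.09% of 27025 genes. The longer TCACGTGA, also the same on both strands and containing the shorter motif, occurred in 5 of the 27, compared with 1.12%. The 9 members were *Atp6v0b*, *Atp6v0d1*, *Atp6v0e*, *Atp6v1a*, *Ctsa*, *Ctsd*, *Ctsf*, *Ctsl* and *Lamp1*. The mean of each of the 9 was higher in *Mfn1*-/- oocytes as deposited, the log2 fold changes ran from 0.16 to 1.42 around a median of 0.58, and relative to the shift *Atp6v0e*, *Ctsf* and *Lamp1* stood just below 0. The 18 without the motif had a median of 0.09, with 12 higher. Of all genes, 56.7% were higher. *Lamp1* (log2 fold change 0.16) holds 4 motifs, and *Atp6v0b* (0.91), *Ctsa* (0.58) and *Ctsd* (0.59) hold 2 each. *Atp6ap2*, *Atp6ap1* and *Atp6v0e2* hold 0. Among expressed members the medians were 0.58 over 6 genes with and 0.41 over 7 without the motif. A match of letters is not a binding site, and binding was not measured. Whether the motif has a part in the differences was not tested. Stretches upstream of the RefSeq start (GRCm38.p6) are shown for 5 of these genes. They include the member with the most motifs (*Lamp1*) and that with the largest difference (*Ctsl*). The stretch of *Ctsd* holds 1 of its 2 motifs, and *Ctsa* is not shown. Each CACGTG is in capitals (gene strand, 5′ to 3′).
Atp6v0b: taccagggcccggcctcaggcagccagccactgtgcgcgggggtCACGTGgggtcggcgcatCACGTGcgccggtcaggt
Lamp1: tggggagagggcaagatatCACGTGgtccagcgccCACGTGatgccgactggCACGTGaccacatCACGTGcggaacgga
Ctsd: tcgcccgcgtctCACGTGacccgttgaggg
Atp6v1a: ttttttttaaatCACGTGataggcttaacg
Ctsl: gcggcgttagaagcCACGTGctgatctaaa
In GRCm38 they lie at chr4:117887330-117887409 (minus strand), chr8:13159081-13159160 (plus), chr7:142387908-142387937 (minus), chr16:44139373-44139402 (minus) and chr13:64370741-64370770 (minus). The stretch of *Lamp1* is outside the gene in GENCODE M21, that of *Atp6v0b* overlaps its first exon by 4 bases, that of *Atp6v1a* overlaps no exon, and those of *Ctsd* and *Ctsl* overlap annotated exons by 30 and 13 bases.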

How the data were processed

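Oocytes from 4 WT and 3 *Mfn1*-/- libraries were grouped by sample title. Per the labels and the paper, the authors amplified poly(A) RNA with Smart-Seq2, removed adapters with Cutadapt and poor reads with FASTX-Toolkit, mapped the rest to GRCm38/mm10 by STAR, counted reads per gene and compared the genotypes with DESeq2. Annotation, normalization and strand setting are not given in the sources used here. Values deposited by the authors are a signal, namely the mean of normalized counts per genotype and the sum over libraries, with a lowest mean of 0.01 (937 genes in *Mfn1*-/-, 922 in WT). The paper gives n = 3 for each genotype, whereas the labels list 4 WT libraries, and in 100% of genes that sum was within 1% of the means weighted by 3 and 4 libraries. The table's p-values, FDR, ratios and fold changes are the authors' own comparison and were not used. The planned limma fit needs values of single libraries and could not be made. There were 0 unused columns of per-sample values.

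Log2 fold changes used a pseudocount of 0.1, and genes at least 2-fold apart were called, with 1.5-fold as an alternative. No depth per library, interval or p-value can be given. All members are named, as are *Mfn1*, *Tcirg1*, *Vma21*, *Cst3*, the TFEB family and other genes of the lists with a mean of at least 1 and a 2-fold difference; other genes of the lists were named after their values were seen. The members and lists were chosen with earlier results of these data known. Of 9 theca and stroma markers, 6 had a row, with summed means of 0.223 and 0.221. Positions and exon lengths are from GENCODE M21, in which all 38 members were found, and 15 of them overlap an exon of another gene. Copies were found with blastn 2.17.0. The code was tested on simulated data. Python 3.11.15, numpy 2.4.6, pandas 2.3.3 and matplotlib 3.10.9 were used.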

Additional observations from a re-analysis of the deposited data

How the results depend on the processing

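No replicate could be left out, and no paired analysis was possible because the table holds 1 mean per genotype. Medians and log2 fold changes were counted as moved beyond 0.1, and counts beyond 1.5 times. With a pseudocount of 0.01 the cathepsin median was 0.31, with 2 genes past 2-fold higher (*Ctsl*, *Ctsz*) and 1 lower (*Ctsm*, the only one of the 38), and *Mfn1* was at -3.21. Without a pseudocount the medians were 0.44 for cathepsins, 0.44 for the Lamp genes and 0.26 for all members, with the same 2 and 1 cathepsins called, and *Mfn1* was at -3.42. With a pseudocount of 1, 0 members were called, V-ATPase and cathepsin genes included, the Lamp median was 0.14 and *Mfn1* was at -0.61. With a minimum mean of 0.1 the medians were 0.27 (V-ATPase), 0.58 (cathepsins) and 0.34 (all members), and with a minimum of 1 they were 0.32, 0.53 and 0.38, with 0.16 for *Lamp1* alone. Relative to the median of expressed genes, the medians became -0.00262 (V-ATPase), -0.054 (cathepsins) and -0.00199 (all members), that of the Lamp genes was 0.17 and *Mfn1* was at -2.34, and 1 member was called, *Ctsl*, with 0 V-ATPase genes. At 1.5-fold, 8 members were higher and 1 lower, with 4 V-ATPase genes and 3 cathepsins higher and 1 cathepsin lower. After division by the sum of all genes, chosen after seeing the data, 0 V-ATPase genes were called, and the medians were 0.051 (V-ATPase) and 0.21 (Lamp). The cause was not tested. Of 98 values compared, 59 kept their size and direction. Low means limit what can be said of 18 members.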
